A study of Mus musculus with 59 samples.

Results

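The sites described here were 2282 H3K4me3 peaks of mouse uterus that had no gene in the deposited table and also carried H3K27ac. They were taken by a rule that used positions alone: peaks of the H3K4me3 table on chromosomes 1 to 19 and X without a gene identifier in that table, overlapping a peak of the H3K27ac table by at least 1 base. They made up 8.84% of the 25827 H3K4me3 peaks tested and 71.9% of the 3174 H3K4me3 peaks without a gene. Chromatin immunoprecipitation with sequencing on uncrosslinked, nuclease-digested chromatin had been done on pieces of frozen endometrium from C57/B6 mice, with both marks measured in the same 27 animals. The groups were young (9 to 11 weeks, n = 7), aged group1 (28 to 36 weeks, n = 4), aged group2 (42 to 48 weeks, n = 6) and aged group3 (54 to 65 weeks, n = 10). No genotype or treatment was given for any group, each library came from a piece of whole tissue that holds several cell types, and the stage of the oestrous cycle was not given.

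H3K4me3 is a histone mark written mostly at the start sites of transcribed genes, by enzymes drawn to CpG-rich DNA and to initiating RNA polymerase. H3K27ac marks active promoters and active enhancers alike, whereas enhancers far from genes usually carry H3K4me1 and little H3K4me3. A peak that carries H3K4me3 and H3K27ac but has no gene in an annotation can therefore be a promoter that the annotation lacks, a promoter of a noncoding RNA or of a tRNA gene, or an enhancer with strong activity. The endometrium is an epithelium over a stroma of fibroblast-like cells, and both respond to the ovarian steroid hormones.

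Values are quantile-normalized log2 RPKM, the log2 of reads scaled to peak length and to the reads of the library, and differences between groups are on the log2 scale, with the fit's standard error (SE). A site was called changed at an adjusted p under 0.05 in limma's test of moderated group means, adjusted by the Benjamini-Hochberg method over all peaks of the mark. A site's H3K27ac is that of the H3K27ac peak with which it shared most bases. Libraries held a median of 21 to 156 reads per site for H3K4me3 and 34 to 74 for H3K27ac, and 48 sites had a median under 10 H3K4me3 reads.

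Cell type markers were read at the H3K4me3 peaks of genes known for each cell type. In young, the mean level was 2.88 ± 0.24 (SD, n = 7) over the epithelial list, 3.43 ± 0.15 over the stromal list, 2.50 ± 0.21 for smooth muscle, 2.17 ± 0.13 for leukocytes and 2.28 ± 0.48 for mesothelium, the outer lining of the uterus. Genes of the endometrium and of the muscle layer thus both carried the mark. Of the listed stromal genes, 6 (Hoxa10, Hoxa11, Hoxd10, Hand2, Twist2 and Tcf21) were without a peak under their symbol. In aged group3 against young, 16 of 20 measured epithelial markers were higher and 0 lower, 12 of 14 stromal markers were lower and 0 higher, 6 of 13 smooth muscle markers were lower, and 3 of 3 mesothelial markers were lower. Of 11 leukocyte markers 4 were higher and 0 lower, and of 11 blood endothelial markers 2 were higher and 2 lower. In aged group3 the mean level was 3.55 ± 0.43 (SD, n = 10, range 2.59 to 3.93) for epithelium, 2.63 ± 0.56 (1.93 to 3.65) for stroma, 1.94 ± 0.34 for smooth muscle and 0.78 ± 0.92 (-0.73 to 2.66) for mesothelium. The mean level of the epithelial list minus that of the stromal list ran from -1.06 to 0.05 in young and from -1.05 to 2.00 in aged group3, where replicates 3, 4 and 10 had 0.03, -0.0018 and -1.05 and the others lay at or above 0.91. In tissue pieces, fewer cells of a type and less of a mark per cell cannot be told apart. Mouse numbers also differed between the groups: 6 of 7 young and 3 of 10 aged group3 libraries had a number under 100.

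RefSeq of the same build, GRCm38.p6, listed genes at some of the sites that had no gene in the deposited table; RNA was not measured here. Of the 2282 sites, 527 (23.1%) lay within a RefSeq gene of some kind, 413 of them in a long noncoding RNA gene, 74 in a protein-coding gene and 30 at tRNA genes. A window of 250 bases before to 50 after a RefSeq start overlapped 128 sites, 30 of the 2282 held tRNA genes, and 1520 (66.6%) lay over 5 kb from every RefSeq gene. The sequences below are start windows of long noncoding RNAs whose start lay inside a site. The windows of Gm33971 and Gm32735 reach past the edge of their sites, and CpG over whole sites was not read. Young H3K4me3 was strong at the sites of Gm33971 and Gm40094, but 0.30 and 0.02 at those of Gm52620 and Gm41259. The Gm40094 site lay 826 bases from the protein-coding gene Pogz, and the Gm33971 site 13316 bases from Cggbp1. They were picked after the values were seen: the highest young H3K4me3, then the smallest adjusted p upward and downward, 2 of each, among 103 sites over such a start outside coding genes. Capitals mark each CpG dinucleotide, the target of mammalian DNA methylation, and each line gives the RNA gene's strand 5′ to 3′ from RefSeq, GRCm38.p6.
Gm33971, chr16:64874297-64874596, minus strand: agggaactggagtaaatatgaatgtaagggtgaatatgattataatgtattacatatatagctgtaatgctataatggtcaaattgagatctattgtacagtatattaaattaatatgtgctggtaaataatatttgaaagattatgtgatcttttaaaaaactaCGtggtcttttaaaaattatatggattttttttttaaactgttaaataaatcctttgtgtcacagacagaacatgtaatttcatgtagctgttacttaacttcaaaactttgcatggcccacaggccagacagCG
Gm40094, chr3:94820857-94821156, plus strand: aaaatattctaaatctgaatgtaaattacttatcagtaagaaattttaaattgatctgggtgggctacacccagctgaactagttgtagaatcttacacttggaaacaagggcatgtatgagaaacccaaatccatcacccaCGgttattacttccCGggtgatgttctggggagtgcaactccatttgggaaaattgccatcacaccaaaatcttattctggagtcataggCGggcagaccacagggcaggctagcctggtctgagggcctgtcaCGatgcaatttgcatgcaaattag
Gm52620, chr3:153078021-153078320, plus strand: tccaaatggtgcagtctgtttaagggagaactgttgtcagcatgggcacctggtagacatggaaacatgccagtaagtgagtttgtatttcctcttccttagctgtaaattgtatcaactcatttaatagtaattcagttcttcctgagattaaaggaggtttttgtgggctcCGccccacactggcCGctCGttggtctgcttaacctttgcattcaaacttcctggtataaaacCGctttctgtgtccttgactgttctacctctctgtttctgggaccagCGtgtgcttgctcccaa
Gm41259, chr15:6044655-6044954, minus strand: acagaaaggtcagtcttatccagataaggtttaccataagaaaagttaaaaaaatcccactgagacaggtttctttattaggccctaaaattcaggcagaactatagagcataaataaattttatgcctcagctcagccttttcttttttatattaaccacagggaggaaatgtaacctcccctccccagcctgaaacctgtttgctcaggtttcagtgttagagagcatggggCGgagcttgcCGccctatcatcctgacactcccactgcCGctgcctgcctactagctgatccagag
Gm32735, chr8:30915247-30915546, plus strand: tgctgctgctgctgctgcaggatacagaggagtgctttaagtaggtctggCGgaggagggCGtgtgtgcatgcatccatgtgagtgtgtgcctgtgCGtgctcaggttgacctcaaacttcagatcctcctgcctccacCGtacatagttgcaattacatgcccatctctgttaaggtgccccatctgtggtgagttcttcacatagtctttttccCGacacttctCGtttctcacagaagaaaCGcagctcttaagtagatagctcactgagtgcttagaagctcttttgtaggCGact
Gm40890, chr12:75701658-75701957, plus strand: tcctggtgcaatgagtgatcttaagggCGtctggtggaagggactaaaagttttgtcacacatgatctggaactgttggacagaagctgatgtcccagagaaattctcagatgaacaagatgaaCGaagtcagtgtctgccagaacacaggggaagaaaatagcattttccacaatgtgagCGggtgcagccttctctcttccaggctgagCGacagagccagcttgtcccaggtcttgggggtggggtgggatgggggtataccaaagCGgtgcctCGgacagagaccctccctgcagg

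The Gm33971 window held 2 CpG and 29.0% G or C, at the site with the highest young H3K4me3 of all 2282, 5.02 ± 0.16 (SD, n = 7). The Gm40094 window held 4 CpG at a site with 4.46. The windows of Gm52620 and Gm41259, whose sites rose with age, held 5 and 3 CpG, and those of Gm32735 and Gm40890, whose sites fell, held 8 and 6. Over all 146 RefSeq start windows at the sites the median was 6 CpG (quartiles 4 to 9) and 49.2% G or C. That lay far below the median of 21 CpG (12 to 29) and 61.3% G or C in the 14121 start windows at gene-bearing H3K4me3 peaks with H3K27ac, and above the median of 3 CpG (1 to 5) in the 16504 windows over no H3K4me3 peak. Of the 146 windows 135 belonged to long noncoding RNAs, for which the medians were 6 at the sites, 17 at gene-bearing peaks with H3K27ac and 3 away from H3K4me3. The median was 5 CpG (quartiles 4 to 7) in 31 windows at sites higher in aged group3, 6 in 11 at lower sites and 7 (3.75 to 10) in the 104 others, and these counts were not tested against each other.

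Short motifs were counted on both strands of the same windows as exact letters. The AP-1 motif TGANTCA was in 7.53% of the windows at the sites and in 7.85% of all 32619 windows, and the forkhead motifs TGTTTAC or TGTTTGC were in 9.59% and 8.52%. The nuclear receptor half-site AGGTCA was in 13.0% against 16.2%, the steroid hormone receptor half-site AGAACA in 28 of 146 windows against 6197 of 32619, and the E-box CAGGTG in 17.8% against 20.3%. A match is a run of letters only, and was not tested as a binding site. The steroid receptor half-site was present in the windows of Gm33971, Gm40094, Gm52620 and Gm40890 printed above, the nuclear receptor half-site in those of Gm41259 and Gm32735, the E-box in that of Gm52620, the forkhead motif in that of Gm41259, and the AP-1 motif in none of the 6.

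The sites were narrower and carried less H3K4me3 and H3K27ac than gene-bearing peaks with both marks. Their median width was 1047 bases (quartiles 796 to 1380), against 738 for H3K4me3 peaks without a gene or H3K27ac and 2119 for gene-bearing peaks with H3K27ac. Median H3K4me3 in young was 1.95 at the sites, 1.73 at the peaks without gene or H3K27ac and 3.38 at gene-bearing peaks with H3K27ac, and median H3K27ac was 1.44 at the sites and 1.79 at the gene-bearing peaks. H3K27ac peaks over the sites had a higher young median (1.43, n = 2244) than intergenic H3K27ac peaks over no H3K4me3 peak (1.15, n = 7656). On this scale, 530 sites had more H3K27ac than H3K4me3 in young, and both the antibody and the peak width differ between the marks.

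Most sites sat within a broader acetylated region. Of the 2282, 1523 (66.7%) lay wholly inside their H3K27ac peak and 42 shared under 50% of their bases with it. The 2282 sites fell on 2231 H3K27ac peaks, 100 of them shared 49 peaks, and 13 sites touched 2 H3K27ac peaks, so sites that share a peak also share its H3K27ac value. At the edge of the rule, the smallest overlap was 48 bases, at chr6:91285095-91286391 with a mean H3K4me3 of 1.56 in young. The nearest peak left out was 119 bases from H3K27ac, at chr5:105651268-105652216 with 1.74. The distance from a site to the nearest protein-coding gene had a median of 27327 bases (quartiles 12057 to 70328), and 401 sites (17.6%) lay over 100 kb away. Genes named below are the nearest protein-coding RefSeq genes, as landmarks; a link between site and gene was not measured.

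**Figure D1:**
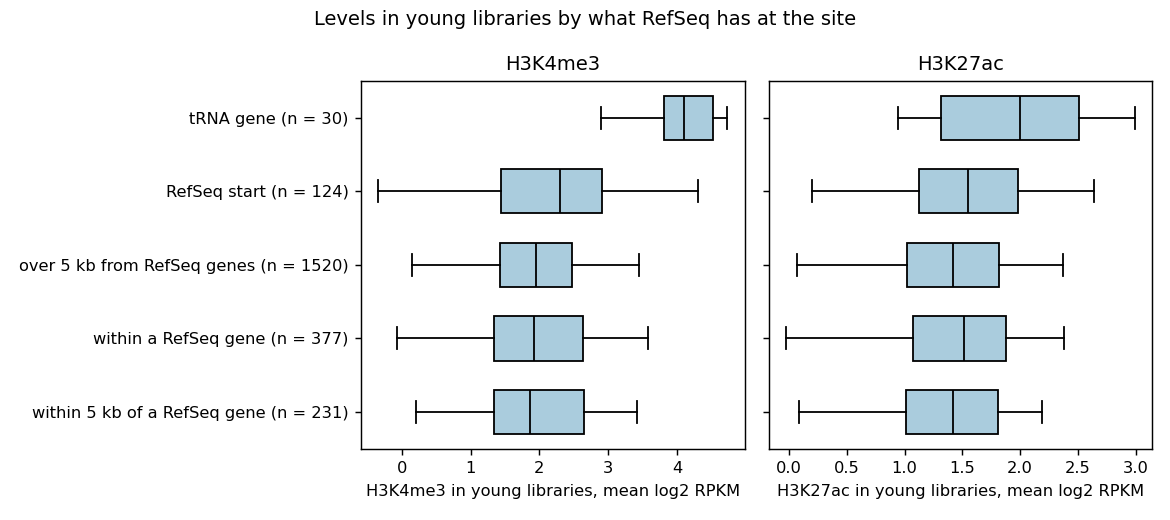
Mean log2 RPKM of H3K4me3 (left) and H3K27ac (right) in the 7 young libraries at the 2282 sites, by what RefSeq has at the site. Boxes span the quartiles, the line is the median and whiskers run from the 5th to the 95th percentile; the 30 tRNA sites have a median H3K4me3 of 4.10, well above the other 4 classes.

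tRNA genes, which RNA polymerase III transcribes, stood under some of the strongest sites. The 30 sites with tRNA genes held 53 of the 408 tRNA genes of RefSeq on these chromosomes. They were 1.31% of the sites, against 0.897% of H3K4me3 peaks without a gene or H3K27ac and 0.558% of all H3K4me3 peaks. Their median width was 2222 bases and their median young level was 4.10 for H3K4me3 and 2.00 for H3K27ac. The other classes in the plot of levels by RefSeq class had H3K4me3 medians between 1.86 and 2.30. At chr13:21974058-21975330, over the methionine tRNA gene n-TMcat8, young H3K4me3 was 4.84 ± 0.12 (SD, n = 7) and H3K27ac 3.33 ± 0.18. At chr1:74816465-74818019, over the glycine tRNA gene n-TGgcc3 and 12289 bases from Wnt10a, a secreted Wnt ligand, the levels were 4.77 ± 0.12 and 3.04 ± 0.08. At chr3:96499146-96503614, with 4 tRNA genes, young H3K4me3 was 4.73 ± 0.10 and aged group3 4.66 ± 0.18.

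With age, few tRNA sites were called in H3K4me3, and H3K27ac fell at some. In aged group3 against young, 1 tRNA site was called higher and 2 lower in H3K4me3 (median change -0.07), and 0 were higher and 7 lower in H3K27ac (median change -0.16), all by limma's adjusted p. The 7 were 23.3% of the tRNA sites, against 16.5% of all sites and 14.9% of all H3K27ac peaks. In H3K4me3, 3.33% of the tRNA sites were higher and 6.67% lower. That compares with 22.8% and 12.4% of all sites and 14.2% and 16.4% of all H3K4me3 peaks. The called H3K4me3 changes of n-TGgcc3 and n-TNgtt9 were -0.18 ± 0.06 (SE, adjusted p = 0.0303) and -0.30 (adjusted p = 0.0137), and n-TEttc8 was higher by 0.54 (adjusted p = 0.0036). The site over the proline tRNA genes n-TPagg7 and n-TPtgg8, chr7:98814308-98817036, lay 18048 bases from Wnt11, another Wnt ligand. Its H3K4me3 was 4.00 ± 0.09 in young and 3.95 ± 0.12 in aged group3 (adjusted p = 0.625), while its H3K27ac fell from 2.21 ± 0.18 to 1.51 ± 0.54, a change of -0.70 ± 0.19 (SE, limma adjusted p = 0.00973). H3K27ac at this site ran from 1.98 to 2.55 in young (median 2.17), was 2.06, 2.14, 2.24 and 1.98 in aged group1, ran from 1.26 to 2.37 in aged group2 (median 2.21) and from 0.87 to 2.27 in aged group3 (median 1.45). Young and aged group3 overlapped through replicates 3, 4 and 5 of aged group3, at 2.27, 2.08 and 2.05, and the 7 others were lower than all young libraries. On the deposited values without quantile normalization, 0 tRNA sites were called in H3K4me3 and 7 were lower in H3K27ac. With the marker score (epithelium minus stroma) as a covariate 0 were called in either mark. That covariate left 188 of 25827 H3K4me3 and 27 of 54354 H3K27ac peaks called, so this 0 lies near the share of all peaks.

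The comparison of aged group3 with young sets the oldest group against the youngest. H3K4me3 was called higher at 520 sites (22.8%, against 14.2% of all H3K4me3 peaks) and lower at 283 (12.4%, against 16.4%). Of the 892 H3K4me3 peaks without a gene or H3K27ac, 20.4% were higher and 15.1% lower. A raised share of higher peaks was thus not particular to the sites with H3K27ac. In either direction 803 sites (35.2%) were called, against 30.7% of all H3K4me3 peaks. More than 2-fold changes were called at 222 sites upward (9.73%, against 5.54%) and 106 downward (4.65%, against 4.38%). The median change was 0.11 at the sites and -0.02 over all peaks. Levels did not overlap between the groups at 44 sites where all aged group3 libraries were higher (1.93%, against 0.918%) and 4 where all were lower (0.175%, against 0.352%).

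The size of this excess depended on scaling, while more sites were higher than lower under each scaling run. On the deposited values the counts were 346 higher and 297 lower, so that 53.8% rather than 64.8% of called sites were higher. That scaling lowered the median change of all H3K4me3 peaks from -0.02 to -0.14, and the median change of the sites became -0.0047. Epithelial and stromal markers moved with the same contrast: with the marker score as a covariate, 21 sites were called higher and 1 lower, of 188 H3K4me3 peaks called in all. Allowing for the mouse number series, the counts were 259 and 131, of 3608 H3K4me3 peaks called in all. Among libraries with mouse numbers under 100 alone, 6 young and 3 aged group3, they were 33 and 16, of 460 called in all. The main fit called 7921 of the 25827 peaks, so these drops were not particular to the sites.

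H3K27ac over the sites changed in both directions about equally. It was called higher at 398 sites (17.4%, against 14.4% of all H3K27ac peaks) and lower at 377 (16.5%, against 14.9%), which are 389 and 365 separate H3K27ac peaks. In either direction that was 775 of the sites, against 29.3% of H3K27ac peaks. Over 2-fold, 137 were higher (6.00%, against 5.64%) and 60 lower (2.63%, against 2.68%). All aged group3 libraries lay above all young ones at 11 sites (0.482%, against 0.35%) and below at 5 (0.219%, against 0.21%). On the deposited values 420 were higher and 468 lower, so which direction held more sites depended on the scaling. Without young replicate 1 the share of lower sites was 10.9%, and without young replicate 2 it was 10.6%. With the marker score as a covariate, 3 were higher and 0 lower, of 27 H3K27ac peaks called in all.

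The marks moved together at most sites that changed in both. Of the 520 sites with higher H3K4me3, 240 (46.2%) also had higher H3K27ac, 8 lower H3K27ac and 272 no call. Of the 283 with lower H3K4me3, 161 (56.9%) also had lower H3K27ac, 1 higher H3K27ac and 121 no call. Counted from H3K27ac, 60.3% of the 398 higher sites had higher H3K4me3 and 42.7% of the 377 lower sites had lower H3K4me3. Both measurements came from the same animals, so a library pair shares its tissue piece. At gene-bearing H3K4me3 peaks with H3K27ac, 48.2% of 2627 higher peaks had higher H3K27ac and 57.6% of 2820 lower peaks had lower H3K27ac, shares close to those at the sites.

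**Figure D2:**
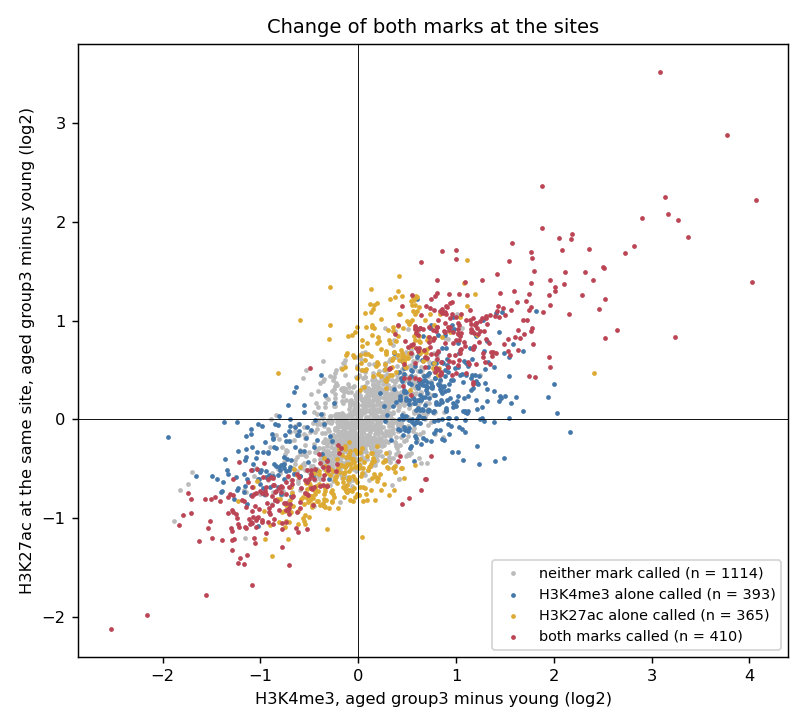
Log2 difference of aged group3 minus young in H3K4me3 (horizontal) and in H3K27ac over the same site (vertical), with a point per site and colours by which mark was called. Both marks were called at 410 sites, nearly all in the lower left or upper right.

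The site with the smallest p rose from a young mean of -1.44, below the lower quartile of the sites (1.41), to 2.63, just above their upper quartile (2.58). For a rise, the rule for named sites kept only those whose aged group3 mean lay above the lower quartile of all tested peaks. The end levels of the named rises were thus favoured by that rule and do not describe rising sites in general. It lay at chr5:53928629-53930621, inside the long noncoding RNA gene Gm40305 and 19408 bases from Tbc1d19. Its H3K4me3 ran from -3.28 to -0.38 in young (median -1.27), was -0.70, 0.05, 0.78 and 1.00 in aged group1, ran from -0.01 to 1.68 in aged group2 (median 0.26) and from 1.16 to 3.55 in aged group3 (median 2.73). No aged group3 library overlapped the young ones, and replicates 3, 4 and 10, with the lowest epithelium minus stroma scores of that group, had the lowest values, 1.81, 1.16 and 2.09. The change from young was 4.07 ± 0.40 (SE, limma adjusted p = 1.93e-07, higher in 10 of 10 libraries than any young one), and 3.31 with the score as a covariate (adjusted p = 0.000373). H3K27ac there rose from -0.24 ± 0.32 to 1.99 ± 0.60 (SD), by 2.23 ± 0.25 (SE, limma adjusted p = 4.88e-06).

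Another of the named rises lay at chr17:37995016-37997111, over 5 kb from all RefSeq genes, with the olfactory receptor gene Olfr761 nearest at 41994 bases. H3K4me3 ran from -1.26 to 0.22 in young (median -0.20), was 1.37, 1.46, 1.19 and 0.46 in aged group1, ran from 0.43 to 2.82 in aged group2 (median 1.13) and from 1.80 to 3.46 in aged group3 (median 2.90). All 20 older libraries lay above all young ones. The change of aged group3 was 3.08 ± 0.32 (SE, limma adjusted p = 2.38e-07). Its H3K27ac changed by 3.52 ± 0.39 (adjusted p = 4.36e-06), the smallest p of that mark among the sites, with 1 aged group3 library, replicate 10, at -0.35 and the others at or above 0.75.

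The sites near Sall3 and Rab21 differed in H3K27ac. The former, chr18:81426639-81427455, lay 439618 bases from Sall3, a zinc finger transcription factor gene. H3K4me3 there ran from 2.61 to 3.54 in young (median 3.27), ran from 3.503 to 3.97 in aged group1 (n = 4), ran from 3.81 to 4.38 in aged group2 (median 3.93) and from 3.91 to 4.43 in aged group3 (median 4.25). Aged group3 and aged group2 both lay wholly above young, and the change of aged group3 was 1.03 ± 0.11 (SE, limma adjusted p = 9.17e-07). Its H3K27ac was 2.18 ± 0.45 in young and 2.09 ± 0.50 (SD) in aged group3, a difference of -0.08 ± 0.19 (adjusted p = 0.755). At chr10:115280984-115281976, 7886 bases from Rab21, which encodes a small GTPase of endosomes, H3K4me3 rose from -0.28 ± 1.25 to 2.85 ± 0.51 (SD) and H3K27ac from -0.74 ± 0.57 to 1.52 ± 0.46.

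The widest of the sites named for a rise was also the start of a long noncoding RNA. The site at chr3:153077431-153083854 was 6424 bases wide, held the start of Gm52620 printed above, and lay 95221 bases from St6galnac5, a sialyltransferase gene. H3K4me3 ran from -0.36 to 0.74 in young (median 0.32), was 1.73, 1.76, 0.95 and 0.67 in aged group1, ran from 0.25 to 3.64 in aged group2 (median 1.14) and from 1.74 to 4.73 in aged group3 (median 4.04). Aged group3 split into 6 libraries at or above 3.54 and replicates 3, 4, 5 and 10 at 1.74, 2.42, 1.95 and 1.79, and none overlapped young. The change was 3.17 ± 0.49 (SE, limma adjusted p = 9.50e-05), and 1.49 with the marker score as a covariate (adjusted p = 0.137). At the Gm41259 start, in the site chr15:6042397-6045315, H3K4me3 rose from 0.02 ± 0.32 to 2.38 ± 1.14 (SD) and H3K27ac from -0.10 ± 0.44 to 1.62 ± 0.88.

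The other 7 of the 12 sites named for a rise in H3K4me3 changed by 1.02 to 3.24. They lay near Zfp24, a zinc finger gene (3.24), Ccdc66 (1.02), Dgkg, a diacylglycerol kinase gene (2.82), Trps1, a GATA-type repressor gene (2.19), Pccb, a propionyl-CoA carboxylase subunit gene (2.32), Prdx5, an antioxidant peroxiredoxin gene (1.80), and Spty2d1, a histone chaperone gene (1.79). Their limma adjusted p-values ran from 5.54e-06 to 0.000115. In 11 of the 12 named rising sites all 10 aged group3 libraries lay above all young ones, and near Dgkg 9 of 10 did. The 12 were picked by smallest p in this same contrast, which favours such separation. All aged group3 libraries lay above all young ones at 1.93% of all sites and 0.918% of all H3K4me3 peaks. Called status held for all 12 on deposited values, for 8 with the marker score as a covariate and for 11 among mouse numbers under 100.

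The named sites of falling H3K4me3 started from young levels above the median of the sites, which the rule for named sites favoured. It kept only sites whose higher group mean, for a fall that of young, lay above the lower quartile of all tested peaks. Their starting levels therefore do not show whether falling sites in general began high. At chr14:31891162-31892171, 60595 bases from Ankrd28, H3K4me3 ran from 2.11 to 2.99 in young (median 2.68), was 2.66, 2.64, 2.42 and 2.44 in aged group1, ran from 1.62 to 2.71 in aged group2 (median 2.40) and from 1.06 to 2.33 in aged group3 (median 1.36). The groups overlapped through aged group3 replicate 4 alone, the change was -1.13 ± 0.19 (SE, limma adjusted p = 0.000182), and it was -0.80 with the score as a covariate (adjusted p = 0.0948). At chr7:30143162-30144384, 2404 bases from the zinc finger gene Zfp382, H3K4me3 ran from 3.45 to 4.15 in young (median 3.75) and from 1.39 to 3.51 in aged group3 (median 2.60), and aged group1 already lay at 3.47, 2.94, 3.58 and 3.12. Its H3K27ac went from 1.60 ± 0.30 in young to 0.27 ± 0.60 (SD) in aged group3, a change of -1.32 ± 0.27 (SE, adjusted p = 0.0028).

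The largest named fall was near Fbxo8, at chr8:56638936-56639629, 44997 bases from that F-box gene. H3K4me3 ran from 1.78 to 2.97 in young (median 2.10), was 2.21, 2.17, 1.96 and 1.45 in aged group1, ran from -0.06 to 2.22 in aged group2 (median 1.26) and from -1.76 to 2.58 in aged group3 (median -0.37). In aged group3, 9 of 10 libraries were below all young ones, and replicate 10, with the lowest epithelium minus stroma score of the group, was at 2.58. The change was -2.53 ± 0.43 (SE, limma adjusted p = 0.000227), -1.21 with the score as a covariate (adjusted p = 0.218), and -3.14 among mouse numbers under 100 (adjusted p = 0.00492). H3K27ac there changed by -2.13 ± 0.40 (SE, adjusted p = 0.00174).

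The other 9 of the 12 named falling sites changed by -0.93 to -1.56 in H3K4me3. They lay near Prr30 (-1.29), Wls, the carrier that brings Wnt proteins to the cell surface (-1.36), Zfp706 (-1.34), Las1l, a ribosome biogenesis gene (-0.93), Lipg, an endothelial lipase gene (-1.05), Slc22a8, an organic anion transporter gene (-0.99), Smim20 (-0.95), Gm11780 (-1.56) and Shox2, a homeobox gene (-1.46), with limma adjusted p-values up to 0.00141. In 2 of the 12, near Prr30 and Zfp706, all aged group3 libraries lay below all young ones, and in the others 8 or 9 of 10 did. Picking by smallest p in this contrast favours such separation, which was seen at 0.175% of all sites and 0.352% of all H3K4me3 peaks. With the marker score as a covariate 0 of the 12 were called, and among mouse numbers under 100 there were 3. At the lncRNA starts printed above, the Gm32735 site changed from 2.88 ± 0.24 to 1.97 ± 0.52 (SD) and the Gm40890 site from 2.26 ± 0.37 to 1.25 ± 0.68.

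**Figure D3:**
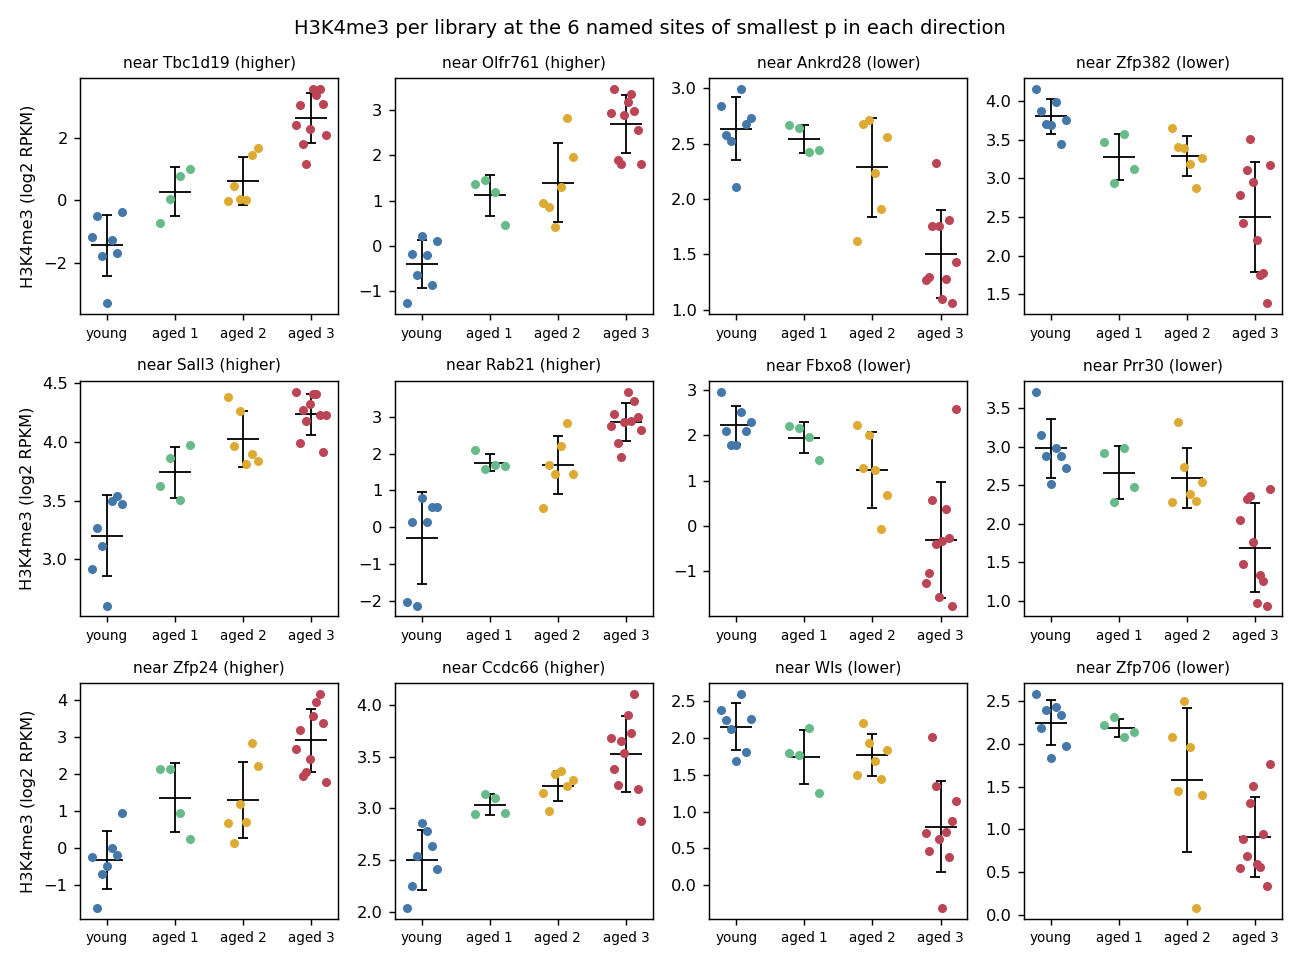
H3K4me3 in log2 RPKM in every library (points) by age group, with the mean and SD as bars, at the 6 sites of smallest p called higher (left 2 columns) and lower (right 2 columns) in aged group3, each named by its nearest coding gene. Near Tbc1d19 all 10 aged group3 libraries lie at or above 1.16 and all young ones at or below -0.38, while near Fbxo8 a single aged group3 library stays at 2.58.

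**Figure D4:**
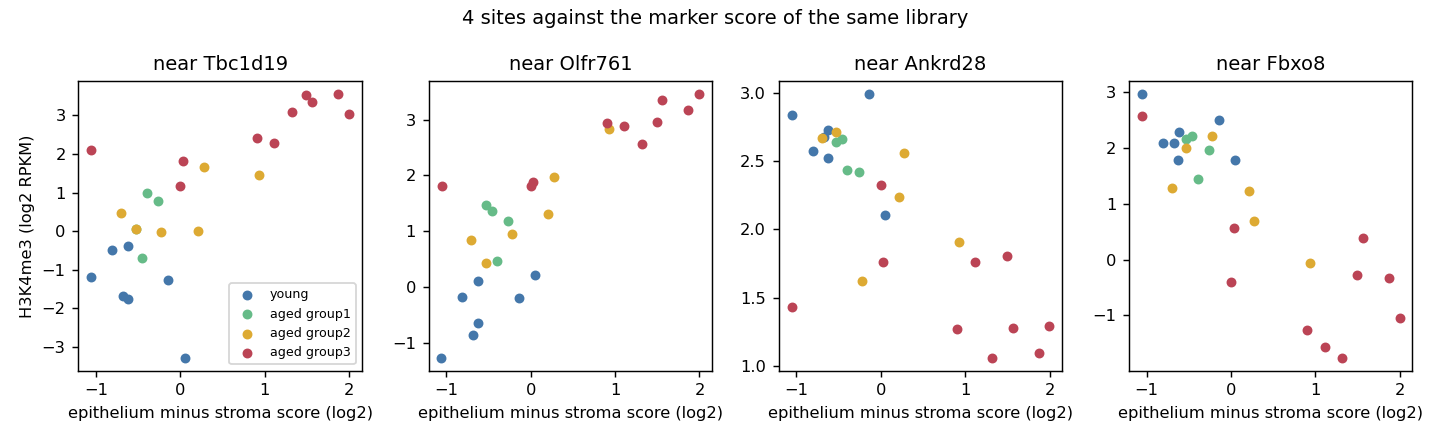
H3K4me3 in log2 RPKM (vertical) against the epithelium minus stroma marker score of the same library (horizontal, log2) at 4 sites, with a point per library and colours by age group. The aged group3 library with the lowest score, -1.05, has 2.09 near Tbc1d19, above all young libraries, and 2.58 near Fbxo8, among the young values.

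The sites named for H3K27ac were in part the same. Of the 6 with the smallest p upward, those near Olfr761, Tbc1d19, Rab21, St6galnac5 and Pccb were also among the named H3K4me3 rises, and the remaining site lay 46746 bases from Hes1, a repressor gene of Notch signalling. Near Hes1, H3K27ac over chr16:30111402-30118632 ran from 0.40 to 1.84 in young (median 1.10) and from 1.82 to 2.89 in aged group3 (median 2.62), a change of 1.42 ± 0.19 (SE, limma adjusted p = 8.42e-05). H3K4me3 at that site changed by 2.40 ± 0.50 (SE, adjusted p = 0.00144) from a young mean of -1.34. The smallest p downward was near Axin2, a target and brake of Wnt signalling, at chr11:108890471-108892333, 25495 bases away. H3K27ac there ran from 1.75 to 2.38 in young (median 1.97), was 1.83, 1.30, 1.66 and 1.43 in aged group1, ran from 0.99 to 1.90 in aged group2 (median 1.39) and from 0.41 to 1.64 in aged group3 (median 0.79). No aged group3 library overlapped young, and the change was -1.09 ± 0.18 (SE, limma adjusted p = 0.00084).

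The marks parted at some of these H3K27ac sites. Near Jam3, a junctional adhesion molecule gene, H3K27ac fell from 2.64 ± 0.20 to 1.90 ± 0.39 (SD), by 0.73 ± 0.14 (SE, adjusted p = 0.0019). H3K4me3 at the same site was 2.83 ± 0.13 and 2.77 ± 0.21, a difference of -0.07 ± 0.11 (adjusted p = 0.684). Near Sp3, a transcription factor gene, H3K27ac changed by -0.88 ± 0.17 (adjusted p = 0.0019) and H3K4me3 by -0.35 ± 0.21 (adjusted p = 0.201). The difference between the marks at a site was not tested.

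Sites were then grouped by the known role of the nearest coding gene. The lists held 103 sites, of which 52 were called in either mark. Over all 2282 sites 1114 were called in neither, so the lists stood near the share of all sites. Over all sites, 22.8% were higher and 12.4% lower in H3K4me3, and 17.4% higher and 16.5% lower in H3K27ac, and the counts below are to be read against these shares. The lists were chosen with results of these samples known, so their directions are not independent evidence; smooth muscle, leukocyte and mesothelium genes were nearest to 0 sites.

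Of 15 sites nearest to epithelial genes, 4 were higher and 0 lower in H3K4me3 (median change 0.14, against 0.11 over all sites) and 4 were higher and 0 lower in H3K27ac (median 0.28, against -0.02). The higher shares were near the 22.8% and 17.4% of all sites. The site at chr17:87601691-87604940, 31039 bases from Epcam, the epithelial cell adhesion molecule gene, had H3K4me3 from -0.36 to 1.10 in young (median 0.06) and from -0.30 to 3.21 in aged group3 (median 1.51), with a change of 1.40 ± 0.42 (SE, limma adjusted p = 0.0142). The aged group3 library with the lowest marker score, replicate 10, was at -0.30, and with the score as a covariate the change was -0.035.

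Of 15 sites nearest to stromal genes, 1 was higher and 4 lower in H3K4me3 (median -0.15, against 12.4% of all sites lower), and 0 were higher and 6 lower in H3K27ac (median -0.50, against 16.5% of all sites lower). At chr6:4456814-4458038, 47580 bases from the collagen gene Col1a2, H3K27ac ran from 1.73 to 2.56 in young (median 2.21) and from 0.17 to 2.55 in aged group3 (median 1.05), a change of -1.01 ± 0.24 (SE, limma adjusted p = 0.00584). At chr7:69992330-69993323, 358623 bases from Nr2f2, a nuclear receptor gene of the stroma, H3K4me3 changed by -1.41 ± 0.37 (adjusted p = 0.00589). All 4 sites nearest to extracellular matrix genes, the Col1a2 site among them, had a median H3K4me3 change of -0.97, with 2 called lower in H3K4me3 and 3 in H3K27ac.

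Signalling lists were mixed. Of 15 sites nearest to immediate early genes, which cells induce within minutes of a stimulus, 6 were higher and 1 lower in H3K4me3 (median 0.45) and 3 higher and 1 lower in H3K27ac. Near Fos, a subunit of AP-1, at chr12:85444321-85445379 and 28511 bases away, H3K4me3 ran from -0.31 to 2.28 in young (median 0.78) and from 1.32 to 2.97 in aged group3 (median 2.32), a change of 1.43 ± 0.29 (SE, limma adjusted p = 0.00114). Of 17 sites nearest to Wnt pathway genes, 2 were higher and 2 lower in H3K4me3 (median -0.11) and 1 higher and 3 lower in H3K27ac (median -0.32). Of 7 nearest to TGF-beta and BMP genes, 0 were higher and 2 lower in H3K4me3, near Smad7, an inhibitor of the pathway (-1.71 ± 0.45), and Tgfbr1, a receptor gene (-0.36 ± 0.12). H3K27ac fell at both, by 0.81 near Smad7 and 0.67 near Tgfbr1, while the list's median change was 0.14 in H3K4me3 and 0.22 in H3K27ac. Most of its sites were not called. Of 5 nearest to steroid hormone response genes 1 was higher in each mark, and of 3 nearest to blood endothelial genes and the 1 nearest to a HOX gene, 1 each was higher in H3K4me3 and 0 in H3K27ac.

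The 31 sites nearest to developmental transcription factor genes formed the largest list. There, 3 were higher and 5 lower in H3K4me3 (median 0.07), and 7 were higher and 9 lower in H3K27ac (median -0.18). H3K27ac rose near Tshz2 (1.16 ± 0.20, adjusted p = 0.000988), Id2 (0.73 ± 0.16, adjusted p = 0.004) and Pax2, a Müllerian duct regulator gene (0.56 ± 0.15, adjusted p = 0.00898). It fell near Foxp1 (-1.11 ± 0.24, adjusted p = 0.00384) and Id4 (-0.79 ± 0.24, adjusted p = 0.018), and H3K4me3 rose near Foxo1, a regulator of decidualisation (0.84 ± 0.23, adjusted p = 0.00724). With the marker score as a covariate, 0 sites of any of the lists were called in either mark. Over all peaks that covariate left 188 of 25827 called in H3K4me3 and 27 of 54354 in H3K27ac. The 0 therefore lies near the share of all peaks.

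Several genes had many sites of their own. Over all sites, 22.8% were higher and 12.4% lower in H3K4me3, and 17.4% and 16.5% in H3K27ac. Fbxo8 was nearest to 6, spread over chr8:56622461-56932987, of which 4 were lower and 0 higher in H3K4me3 and 5 lower and 0 higher in H3K27ac. From the site closest to the gene outward, the H3K4me3 changes were -1.09, -2.16, -2.53, -0.91, -1.30 and -0.22, and the H3K27ac changes -1.68, -1.98, -2.13, -1.07, -1.22 and -0.27. The sixth site, 337964 bases from Fbxo8, was called in neither mark, so the falls stood in the 5 sites within 112324 bases. Of the 10 sites nearest to Sall1, a zinc finger transcription factor gene, 2 were higher in H3K4me3 and 3 in H3K27ac with 0 lower. The H3K4me3 count was near the share of all sites, and the median H3K4me3 change was 0.16, against 0.11 over all sites. The largest change was at chr8:89288494-89291318, from -0.67 to 1.79 in H3K4me3 (2.46, adjusted p = 0.000214). Of 8 sites nearest to Ankrd55, 4 were higher and 1 lower in H3K4me3, and of 6 nearest to Ubl3, 2 were higher in H3K4me3 and 3 in H3K27ac, with 0 lower in either mark.

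The sites with the highest H3K4me3 in young moved little. Behind the Gm33971 site, which changed by -0.21 ± 0.07 (SE, limma adjusted p = 0.0291), came the shared start of AB010352 and Gm35089 at chr5:109865951-109867792 (4.91 ± 0.15 in young, change -0.14 ± 0.07, adjusted p = 0.118) and the start of Gm36298 at chr13:62652275-62653829 (4.89 ± 0.12, change -0.13 ± 0.09, adjusted p = 0.266). Next came the tRNA sites of n-TMcat8 (change -0.15, limma adjusted p = 0.197) and n-TGgcc3 (-0.18, adjusted p = 0.0303). Each of these changes was downward, which picking sites by a high young value favours, and those of Gm33971 and n-TGgcc3 were called. The highest young H3K27ac was at a site of 395 bases on chromosome X, 54168 bases from Eda2r, with 3.47 ± 0.44 and 4.59 ± 0.12 in H3K4me3. At the other end, sites at chr4:122266386-122268257 and chr4:122268273-122269724 shared a single H3K27ac peak with a young mean of -5.50, where the median library held 0 reads of either mark. Of the 2282 sites, 21 had a median of 0 H3K4me3 reads and 25 a median of 0 H3K27ac reads; at these the deposited value stands for no reads. Of the 40 sites on chromosome X, 1 was higher and 3 lower in H3K4me3, where 22.8% of all sites were higher and 12.4% lower.

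The younger aged groups differed little from young. Aged group2 had 7 sites higher and 0 lower in H3K4me3 (0.307% of the sites, against 0.217% of all peaks, 0.205% higher and 0.0116% lower) and 0 called in H3K27ac (against 0.011% of all H3K27ac peaks), where 9.77% of the sites, against 8.92% of all peaks, had an unadjusted p under 0.05. The 3 named by smallest p were the Sall3 site (0.82 ± 0.13 SE, limma adjusted p = 0.00269), the site near Ceacam5 (2.48 ± 0.44, adjusted p = 0.00852) and the Olfr761 site (1.79 ± 0.36, adjusted p = 0.0218). The Ceacam5 site, chr7:17539150-17541083, held a median of 6 reads, and its values in young, -4.48 to -4.30, lay near those of peaks without reads, as in 3 of 4 aged group1 libraries and 1 of 6 in aged group2, while aged group3 lay at -1.86 to 0.02. Leaving out single young or aged group2 libraries gave 2 to 6 called sites. Aged group1 had 0 called sites in either mark by limma (against 0.00387% of all peaks in H3K4me3 and 0% in H3K27ac), with 104 sites (H3K4me3, 4.56%, against 3.61% of all peaks) and 103 (H3K27ac, 4.51%, against 3.93%) at an unadjusted p under 0.05, and the smallest adjusted p was 0.389 in H3K4me3. These comparisons share the young libraries with that of aged group3, so their values are not independent of it.

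Between neighbouring aged groups, limma called 0 sites for aged group2 against aged group1 in either mark (0% of all peaks in both), with 81 (3.55%, against 2.55% of all peaks) in H3K4me3 and 53 (2.32%, against 2.78%) in H3K27ac at an unadjusted p under 0.05. For aged group3 against aged group2, 3 were higher and 4 lower in H3K4me3 (0.307%, against 0.205% of all peaks, 0.0542% higher and 0.151% lower) and 0 in H3K27ac (0% of all peaks), where 435 (19.1%, against 16.04% of all peaks) had an unadjusted p under 0.05. The rises were near Klhl25 (1.06 ± 0.22 SE), Tbc1d19 (2.02 ± 0.42) and Gm41844 (1.55 ± 0.32), each with an adjusted p of 0.0405, and the 3 named falls were near Ebf1 (-1.29 ± 0.27), Rbpms (-1.19 ± 0.26) and Neu1 (-0.76 ± 0.17). This count was unstable: it became 206 without aged group3 replicate 10, 120 without replicate 4, 114 without replicate 3, 116 without aged group2 replicate 5 and 13 without aged group3 replicate 1, and 0 without any other single library of aged group2, or of aged group3 apart from those named. Counts over all peaks without these libraries are not given here, so the shifts cannot be called particular to the sites. Replicates 3, 4 and 10 had the lowest epithelium minus stroma scores of aged group3 (0.03, -0.0018 and -1.05). Replicate 5 had the highest score of aged group2, 0.93. A link between score and count was not tested.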

How the data were processed

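Native ChIP-seq of 2 histone marks was measured in 27 libraries per mark, 1 per mouse, over 4 age groups. Input libraries were not used. The deposited values are log2 RPKM per peak, made by the authors for a set of peaks common to all libraries of a mark, per the file headers. The submitters' processing notes name GRCm38, deepTools 3.5.1, DESeq2, Bowtie2, ChIPseeker 1.34.1, DiffBind 3.8.0 and MACS2 2.2.9.1, without saying which step made the log2 values. Every value was a whole number of reads within 0.05, and a peak without reads held 0.9, so libraries of 6.84 to 48.3 M reads (H3K4me3) and 7.60 to 16.9 M (H3K27ac) stand behind them. More reads give a site less counting error.

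Values were quantile-normalized within each mark. They were fitted with limma 3.58.1 (R 4.3.3, mean-variance trend, 1 model of 4 group means). Tests were two-sided, and p-values were adjusted by Benjamini-Hochberg over all 25827 H3K4me3 or 54354 H3K27ac peaks, with a threshold of 0.05. For each mark 8 peaks on other chromosomes were left out. The fit was tested on simulated data. Tables were made with Python 3.11.15, pandas 2.3.3, numpy 2.4.6 and matplotlib 3.10.9.

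The rule for named sites took those of smallest p past the threshold, 12 per direction for H3K4me3 and 6 for H3K27ac, with the higher group mean above the lower 25% of all tested peaks. It added up to 3 per direction in other contrasts, the 5 of highest young H3K4me3, sites at the extremes of H3K27ac level and width, and up to 15 by gene list. The sites and lists were chosen with earlier results of these data known. Nearest genes and start windows came from RefSeq (GRCm38.p6), and no window of chromosome 18 was printed. Distances run to the extent of the nearest protein-coding gene, where the design named its start, and motifs were counted in start windows because no genome sequence was used here. Alternatives changed the scaling, pseudocount, low-value filter, variance trend, libraries fitted, covariates, overlap (50%) and single libraries.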

Additional observations from a re-analysis of the deposited data

Results flagged for a closer look

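Of 154 sets of 4 to 10 libraries checked for a single library far from the others, 9 held one, and chance gives about 1 in 20. In H3K4me3, aged group2 replicate 1 was lowest near Ceacam5 (chr7:17539150-17541083) at -4.43, with the next at -1.76, and aged group2 replicate 2 was lowest near Klhl25 (chr7:75821313-75822218) at 1.46, with the next at 2.02. Aged group3 replicate 2 was lowest near Smad7 (chr18:75401664-75402413) at -2.83, with the next at -0.43. Among young libraries, replicate 3 was lowest in H3K4me3 over n-TGgcc3 (chr1:74816465-74818019) at 4.53, with the next at 4.72, and highest near Id4 (chr13:47776841-47778047) at 2.28, with the next at 1.81. In H3K27ac, young replicate 4 was lowest at that Id4 site at 1.68, with the next at 2.21, and lowest over n-TMcat8 (chr13:21974058-21975330) at 2.97, with the next at 3.31. Young replicate 5 was highest in H3K27ac near Epcam (chr17:87601691-87604940) at 2.26, with the next at 1.41. The median H3K4me3 over all sites was highest in young replicate 5, at 2.13, with the next at 2.03.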

How the results depend on the processing

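For aged group3 against young, 520 sites were higher and 283 lower in H3K4me3, and 17.4% and 16.5% of the sites in H3K27ac. The higher H3K4me3 count moved by over 1.5 times to 346 on deposited values, where 297 were lower. Over all H3K4me3 peaks, deposited values gave 5847 calls. With a filter on low values, which tested 1422 sites, the counts were 336 and 184, of 5991 called among 19370 H3K4me3 peaks. Allowing for the library-code digit they were 209 and 54 (H3K27ac 2.19% and 0.964%), and for the mouse number series 259 and 131 (9.51% and 7.49%). With the epithelium minus stroma score as covariate they were 21 and 1 (0.131% and 0%), and among mouse numbers under 100 alone, an alternative chosen after seeing the data that keeps 9 of the libraries, 33 and 16 (0.0438% in each direction). Calls over all H3K4me3 peaks fell as well, from 7921 to 2332 with the digit and 3608 with the series. They were 188 with the covariate and 460 among mouse numbers under 100. Calls over all 54354 H3K27ac peaks fell from 15904 to 1365 with the digit and 7334 with the series. For H3K27ac they were 27 with the covariate and 8 among mouse numbers under 100, so these drops were not particular to the sites. For the factors and the covariate the cause was not tested. The 7 sites of aged group2 against young in H3K4me3 became 1 with a pseudocount of 0.5, 2 with the 2 groups alone, 0 with the mouse number series and 4 with the covariate. The 7 of aged group3 against aged group2 became 12 with the pseudocount, 4 with the filter, 16 with the mouse number series, and 0 on deposited values, with the 2 groups alone, the library-code digit, the covariate or the replicate block. Aged group1 against young gave 1 with the digit, and H3K27ac of aged group2 against young gave 1 on deposited values, with median-centred libraries or with the 2 groups alone.

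Counts over all peaks without single libraries are not given here. Leaving out 1 library at a time gave 420 to 599 higher and 193 to 385 lower sites in H3K4me3, and 12.6% to 22.3% and 10.6% to 22.5% in H3K27ac. It gave 2 to 6 for aged group2 against young in H3K4me3 (0 to 1 in H3K27ac, 1 without aged group2 replicate 3), 0 to 206 for aged group3 against aged group2 (0 to 2 in H3K27ac, 2 without aged group2 replicate 5) and 0 to 1 for aged group2 against aged group1.

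Of 58 results for named sites, 55 stayed past the threshold without any 1 library and 9 under every alternative run. With the covariate 45 fell short of it and 3 changed sign: H3K4me3 near Epcam (-0.035) and Col1a2 (0.083), and H3K27ac near Id4 (0.10), where the cause was not tested. Between groups, libraries of the same replicate number had deviations with a median r of 0.037 in H3K4me3 and 0.059 in H3K27ac. Pairs of other numbers had -0.023 and -0.031. Same-number r was over 0.1 in 8 and 12 of 31 pairs, and at most 0.31 and 0.53. The difference was not tested, and the main fit did not use the numbers as pairs. With the replicate block 432 sites were higher and 279 lower in H3K4me3, and 370 and 413 in H3K27ac. Over all peaks the block left 6842 of 25827 called in H3K4me3 and 16064 of 54354 in H3K27ac. Depth limits single sites: the median library held 45 H3K4me3 reads and 50 H3K27ac reads per site.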

Other observations

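Some other genes with many sites had few of them called. Over all sites, 22.8% were higher and 12.4% lower in H3K4me3, and 17.4% and 16.5% in H3K27ac. With 6 or 7 sites per gene, a difference from these shares was not tested. The 7 sites nearest to Gm40363, over chr6:47685046-47765697, were called in neither mark by limma in aged group3 against young, with H3K4me3 changes from -0.61 to 0.39. Of the 7 sites nearest to Zfp217, a zinc finger repressor gene, 1 was higher and 2 lower in H3K4me3, and 0 were higher and 2 lower in H3K27ac. Of the 6 nearest to Med13l, a Mediator kinase module subunit gene, 1 was lower in H3K4me3 and 2 in H3K27ac, with 0 higher in either mark.

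The widest site lay at chr4:133094800-133103837, 16690 bases from Ahdc1. Its H3K4me3 changed by 0.65 in aged group3 against young, from -0.01 to 0.64 (limma adjusted p = 0.034), and its H3K27ac by 0.10 (adjusted p = 0.634). At chr11:120750107-120756486, near Hmga1b, the H3K4me3 change was 0.21 (adjusted p = 0.566) and the H3K27ac change 0.49 (adjusted p = 0.0762).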
